A study of Mus musculus with 2 samples.

Results

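Vascular endothelial cells without endocardial genes were taken from 2 Drop-seq libraries of embryonic mouse heart tissue, and numbered 395 of the 8972 cells that passed the filters. Cells were chosen by measured UMIs of these genes: a cell was counted when it held at least 400 genes, at most 10% mitochondrial UMIs (unique molecular identifiers, 1 per captured transcript), and UMIs of at least 2 of the 10 gating genes Pecam1, Cdh5, Kdr, Tie1, Egfl7, Esam, Ramp2, Emcn, Plvap and Cldn5. It also had to hold 0 UMIs of the endocardial genes Npr3 and Nfatc1, 0 UMIs of the myeloid genes Tyrobp, Lyz2 and C1qb, and under 15% haemoglobin UMIs. Replicate 1 gave 163 such cells of 4038 (4.04%, exact binomial 95% interval 3.45 to 4.69), and replicate 2 gave 232 of 4934 (4.70%, interval 4.13 to 5.33). The intervals count each barcode as a separate cell. In replicate 1 some shallow vascular barcodes, of 568 to 901 UMIs, were listed consecutively, and whether they were separate cells was not tested. The class is named for its gate. Endothelial genes outside the gate were high in its 57 and 91 cells with at least 4 gating genes. They were much lower in its 72 and 104 cells with exactly 2, as given below.

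Both libraries came from wild-type CD1 mouse embryos at embryonic day 10.0, from posterior second heart field (the progenitor tissue behind the heart) and heart tube. About 80 embryos were pooled for each library, and the 2 biological replicates were handled on different days. The design has no treated or mutant arm, so the comparisons below are between kinds of cells of the same embryos. No embryo can be told from another within a pool.

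Endothelial cells line blood vessels. Members of the ETS, SOXF and SCL/LMO2 groups of transcription factors are known to set up their identity, and the VEGF and angiopoietin receptors carry the growth signals of the vessel wall. The endocardium is the endothelial lining of the heart itself, which also gives rise to the mesenchyme of the valve cushions.

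The vascular cells held 656828 UMIs in replicate 1 and 945599 in replicate 2, with medians of 1535 and 2352.5 UMIs per cell. Cells with at least 2 gating genes and a UMI of Npr3 or Nfatc1, called endocardial-like below, numbered 58 and 86, and were deeper, with medians of 5763 and 3764.5 UMIs. A shallow endocardial cell can show 0 UMIs of both genes by sampling alone, so this gap in depth stands beside every comparison of the 2 classes. The cells called other below held no gating gene and fitted no other class. They numbered 3076 and 3699, with medians of 1169.5 and 1265 UMIs. The libraries shared 82 barcodes, and 0 of them were vascular cells. Of the vascular cells, 0 had 5% or more haemoglobin UMIs.

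The label was checked with 10 endothelial genes that took no part in the gate: Erg, Fli1, Sox7, Sox18, Flt1, Tek, Eng, Cd34, Icam2 and Cd93. Levels are on the usual CPM scale, the UMIs of a gene relative to all UMIs of the cells summed. The summed level of the 10 genes was 671 and 782 CPM in the vascular cells of the 2 replicates, against 39.9 and 49.9 CPM in other cells, 19.3 and 12.4 CPM in cardiomyocytes and 1.80 and 3.66 CPM in erythroid cells. The vascular cells thus stood above these 3 classes and below the endocardial-like cells, at 1642 and 1915 CPM.

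That level depended steeply on how many gating genes a cell held. Just inside the gate, at exactly 2 genes, stood 72 and 104 of the cells, and their summed level of the 10 independent genes was 139 and 148 CPM. Just outside, at exactly 1 gene, it was 49.3 and 70.7 CPM. It was 345 and 675 CPM at 3 genes, 1698 and 1573 CPM at 4 to 5, 2064 and 2326 CPM at 6 to 7, and 2041 and 2250 CPM at 8 to 10. Of the 2-gene cells, 36.1% and 40.4% held a UMI of any of the 10 genes, whereas all cells with 6 or more gating genes held one. The 148 cells with at least 4 gating genes (57 and 91) thus had levels close to those of the endocardial-like cells, and the 2-gene cells had levels nearer to those outside the gate. The 2-gene cells held 345800 of the 656828 vascular UMIs in replicate 1 and 560807 of 945599 in replicate 2. Most UMIs summed for the vascular class thus came from them.

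RNA of mesenchyme, liver and epithelium went the other way. The 14 genes of a mesenchyme and second heart field list summed to 3227 and 2641 CPM in 2-gene cells, above the 2800 and 2458 CPM of other cells, and to 105 and 38.7 CPM in cells with 8 to 10 gating genes. All 14 had UMIs in the vascular cells. Liver genes stood at 460 and 440 CPM in 2-gene cells and at 20.9 and 38.7 CPM with 8 to 10 genes, and epithelial genes at 772 and 756 CPM and at 0 and 7.73 CPM. Of the cardiomyocyte list, 11 of 12 genes had UMIs (Nppa was at 0), and the sum was 1422 and 2069 CPM in the vascular cells, 586 and 787 CPM in other cells and 41452 and 55871 CPM in cardiomyocytes. Of the macrophage list, 7 of 12 genes were at 0, among them Ptprc, Adgre1, Cx3cr1 and C1qa, and the sum was 38.1 and 29.6 CPM. Macrophage genes stood at 2.89 and 10.7 CPM in 2-gene cells and at 62.8 and 85.1 CPM with 8 to 10 genes, erythroid genes at 46.3 and 53.5 CPM and at 83.7 and 101 CPM, and neural genes at 312 and 191 CPM and at 377 and 232 CPM. These 3 lists were thus higher at 8 to 10 gating genes than at 2, but without a steady rise between. Neural genes were highest at 4 to 5 genes (692 and 415 CPM) and erythroid genes at 3 (217 and 120 CPM). Macrophage genes were highest at 6 to 7 in replicate 1 (145 CPM) and at 8 to 10 in replicate 2. The part that RNA of other cells plays in the results below was not tested. Counts over all genes and over the lists most affected are also given for cells with at least 4 gating genes. That limit was chosen after these values were seen.

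**Figure D1:**
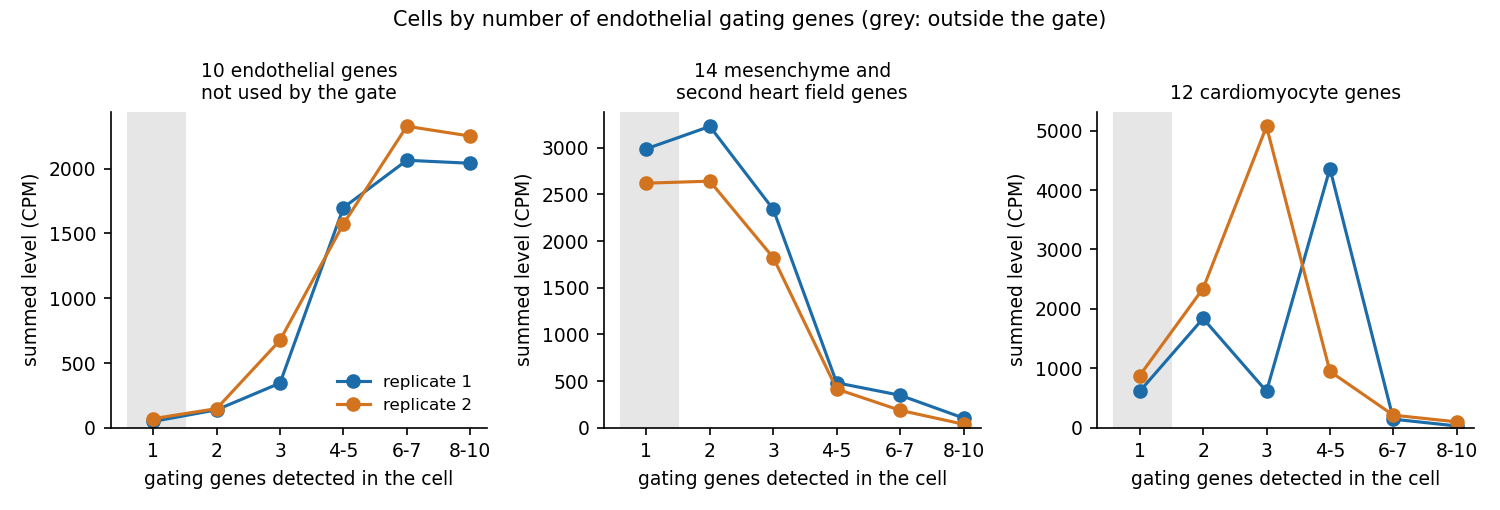
Summed level in CPM (vertical axes) of 3 gene lists against the number of gating genes a cell held (horizontal axes), with 1 line per replicate and cells outside the gate on grey. The independent endothelial genes go from 139 and 148 CPM at 2 gating genes to 1698 and 1573 CPM at 4 to 5 genes, while the mesenchyme genes are lowest at 8 to 10 genes, and the cardiomyocyte genes peak in different bins in the 2 replicates.

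The gating genes themselves are given as a description. Egfl7, which encodes a protein secreted by endothelium, was found in 72.4% and 75.9% of the vascular cells, and Ramp2, a partner of the adrenomedullin receptor, in 55.8% and 65.5%. The VEGF receptor Kdr was found in 48.5% and 45.3%, and the diaphragm protein Plvap in 43.6% and 46.1%. The junction genes were seen in fewer cells: Cdh5 (VE-cadherin) in 30.7% and 31.9%, Pecam1 in 28.8% and 21.6%, and Cldn5 in 19.6% and 21.98%. At these depths a missing UMI does not show a missing transcript.

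The first comparison set the vascular cells against other cells. UMIs were summed per library and class, and edgeR's quasi-likelihood test with the library as a block and Benjamini-Hochberg adjustment was run over 10846 genes. The p-values measure how far differences between classes varied between these 2 pooled libraries, after a library shift common to all classes was removed. That spread was estimated over 12 sums with 5 residual degrees of freedom, and cells of 1 library were not treated as replicates. In vascular cells 676 genes were higher (6.23% of the genes tested) and 347 were lower (3.20%), 9.43% in all. At 3 or more gating genes, 940 were higher (9.09%) and 658 lower (6.37%) of 10337 tested. With at least 4 gating genes, 1000 were higher (9.65%) and 847 lower (8.18%) of 10359 tested. Without the library as a block, 239 were higher and 17 lower.

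Transcription factors of endothelium were nearly all higher: 17 of 19 tested were higher and 0 lower, with a median log2 fold change of 3.04 against -0.02 for all genes tested. At 4 or more gating genes it was 17 of 20 and a median of 4.07. Sox18, a SOXF factor of vessel and lymphatic development, stood at 33.5 and 115 CPM in vascular and 0.894 and 1.19 CPM in other cells (log2 fold change 6.10 ± 0.38 SE, adjusted p = 1.6e-13). It was thus over 3 times higher in replicate 2 than in replicate 1, and the log2 fold change was 5.14 from replicate 1 alone and 6.53 from replicate 2 alone. Its relative Sox7 stood at 19.8 and 26.4 CPM, against 0.149 and 0.658 CPM.

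Of the ETS factors, Erg stood at 51.8 and 30.7 CPM in vascular against 2.09 and 1.19 CPM in other cells (4.60 ± 0.38), and Fli1 at 91.3 and 146 CPM against 16.2 and 29.4 CPM (2.38 ± 0.18). Fli1 thus had more RNA outside the endothelial classes than Erg. Tal1 (SCL) was at 86.8 and 69.8 CPM against 1.79 and 1.19 CPM (5.67 ± 0.27). Its partner Lmo2 was at 73.1 and 70.9 CPM against 2.83 and 3.69 CPM (4.43 ± 0.27), and Lyl1, a close relative of Tal1, at 51.8 and 37.0 CPM against 1.49 and 0.790 CPM. Klf2, a factor known to respond to blood flow, was at 25.9 and 15.9 CPM against 0.447 and 0.263 CPM. The adjusted p-values of these 6 genes in edgeR's test were all at or below 5.4e-08. Tcf4 did not pass, at 131 and 152 CPM against 115 and 146 CPM.

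Among the VEGF and angiopoietin genes, 7 of 14 were higher and 0 lower, and all 7 encode receptors or proteins of the endothelial membrane. At 4 or more gating genes 7 were higher and 2 lower, the ligands Pgf and Angpt1. Flt1, a VEGF receptor that binds ligand without strong signalling, was at 95.9 and 87.8 CPM against 8.94 and 6.98 CPM (3.53 ± 0.22, adjusted p = 5.6e-14, edgeR). Tek, the angiopoietin receptor, was at 104 and 47.6 CPM against 5.36 and 3.95 CPM (3.96 ± 0.27). The co-receptors Nrp1 and Nrp2 were higher by smaller amounts, 1.02 ± 0.15 and 1.07 ± 0.21. The ligands did not pass: Vegfa was at 28.9 and 18.0 CPM against 27.0 and 28.7 CPM, Angpt1 at 95.9 and 59.2 CPM against 75.4 and 41.7 CPM, and Angpt2 at 7.61 and 12.7 CPM against 6.70 and 6.58 CPM. In cells with at least 4 gating genes Angpt1, which is made by cells around vessels, was lower, at a log2 fold change of -2.62 (adjusted p = 0.0010, edgeR).

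Junction and surface proteins gave 15 of 18 higher and 0 lower, with a median of 4.43, and at 4 or more gating genes 16 higher and 1 lower (Jam3). Icam2, an adhesion molecule for leukocytes, had the largest fold change of the named genes: 39 and 78 UMIs, or 59.4 and 82.5 CPM, against 0.298 and 0.658 CPM (7.03 ± 0.37, adjusted p = 3.3e-15, edgeR), a 131-fold difference. Both replicates lay far above the other cells, with no overlap. The gene lies on chr11:106377656-106388075, minus strand, in the mm10 build. The stalk protein Cd34 was at 97.4 and 121 CPM against 2.83 and 2.63 CPM (5.30 ± 0.25), and Cd93 at 59.4 and 61.3 CPM against 0.894 and 1.58 CPM (5.53 ± 0.36). Eng, a co-receptor for BMP ligands, was at 59.4 and 63.5 CPM against 2.23 and 1.71 CPM (4.95 ± 0.30), and Ecscr, a surface protein of endothelial cells, at 82.2 and 144 CPM against 4.02 and 6.06 CPM (4.48 ± 0.23).

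The other genes with the largest rises by the naming rule were Gimap6, of a family of small GTPases known from lymphocytes (6.42 ± 0.36), Ctla2a, which resembles a protease propeptide (6.34 ± 0.48), and Gngt2, a G protein subunit (5.19 ± 0.34). Caveolar genes gave 6 of 7 higher, for example Cavin3 at 73.1 and 149 CPM against 8.04 and 18.0 CPM (3.10 ± 0.19). Basement membrane genes gave 12 of 18 (13 at 4 or more gating genes), with the collagen chains Col4a1 (1.46 ± 0.14) and Col4a2 (1.57 ± 0.17) and the glycoprotein Sparc (1.01 ± 0.14).

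Vessel tone and clotting genes gave 13 of 15 higher and 1 lower. Nos3, the endothelial nitric oxide synthase, was at 24.4 and 40.2 CPM against 1.19 and 0.790 CPM. Calcrl, the receptor that works with Ramp2, was at 59.4 and 44.4 CPM against 8.64 and 4.35 CPM (3.02 ± 0.27). Adora2a, an adenosine receptor, had 5 and 2 UMIs in vascular cells and 0 in other cells of both libraries, too few for a fold. The member that was lower was Plat, the tissue plasminogen activator.

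**Figure D2:**
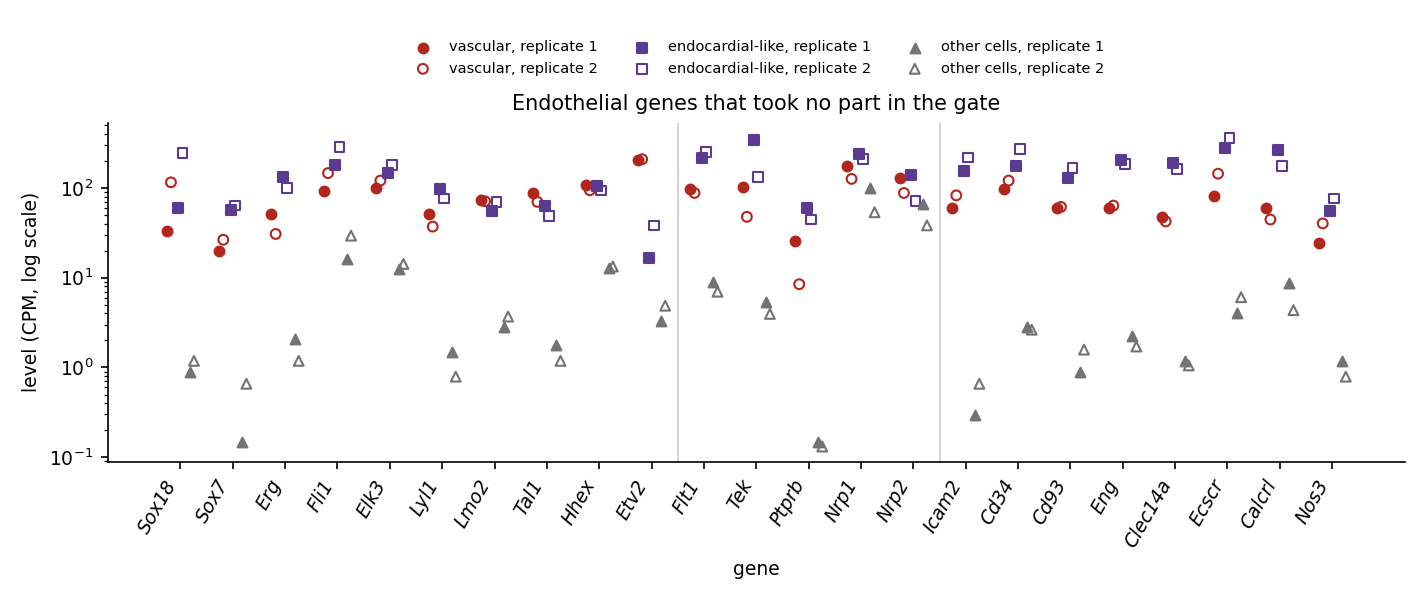
Level in CPM on a log scale (vertical axis) of 23 endothelial genes outside the gate (horizontal axis) in vascular, endocardial-like and other cells, filled symbols for replicate 1 and open symbols for replicate 2. Vascular cells lie above other cells for each gene shown and below the endocardial-like cells for most of them, and Etv2, at 204 and 208 CPM against 16.7 and 38.1 CPM, lies well above both.

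Lists for vessel subtypes moved in part. Of arterial genes not used for marking, 7 of 13 were higher, and of venous and lymphatic genes 7 of 12 were higher and 1 was lower. At 4 or more gating genes the arterial list had 5 higher and 1 lower (Cxcl12), with Bmx, Gja5 and Hey1 no longer called and Notch4 newly called, and the venous and lymphatic list again 7 and 1. Among them Acvrl1, a BMP receptor, was at 24.4 and 25.4 CPM against 1.49 and 2.50 CPM (3.59 ± 0.45), and Stab1, a scavenger receptor, at 44.2 and 38.1 CPM against 1.94 and 1.98 CPM (4.35 ± 0.37). Lyve1, a receptor for hyaluronan, was at 21.3 and 7.40 CPM against 0.596 and 1.05 CPM. Prox1, the lymphatic regulator, was at 42.6 and 10.6 CPM against 14.4 and 9.61 CPM (1.03 ± 0.33, adjusted p = 0.045, edgeR). Its rise rested on replicate 1: from replicate 2 alone the log2 fold change was 0.20, and with at least 4 gating genes the adjusted p was 0.38.

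Notch pathway genes gave 2 of 10 higher, Notch1 (1.58 ± 0.36) and its target Hey1 (1.12 ± 0.34). Beside each list of this paragraph, 6.23% of all genes tested were higher and 3.20% lower (9.65% and 8.18% at 4 or more gating genes). At 4 or more gating genes Notch4, Nrarp and Notch1 were higher and Notch2 was lower, and Hey1 did not pass. Notch1 was at 50.2 and 12.7 CPM, so it was nearly 4 times higher in replicate 1, and its log2 fold change from replicate 2 alone was 0.85. Tip cell genes gave 3 of 8 (at 4 or more gating genes 5 of 9, and 1 lower), among them Kcne3 at 18.3 and 26.4 CPM against 0.596 and 0.527 CPM and the peptide Apln at 22.8 and 31.7 CPM against 7.75 and 8.30 CPM. Genes of haemogenic endothelium, which buds off blood stem cells, gave 2 of 8, Procr and Itga2b, with 17 and 10 UMIs in all, of which only Procr passed at 4 or more gating genes. The progenitor receptor Kit was at 18.3 and 20.1 CPM against 14.9 and 11.2 CPM and did not pass.

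The series is about Hedgehog signalling and the timing of differentiation, so both lists were read in these cells. Of 9 Hedgehog genes tested, 3 were lower and 1 was higher. Over all genes tested 3.20% were lower and 6.23% higher (8.18% and 9.65% at 4 or more gating genes). Ptch1, the Hedgehog receptor and a target of the pathway, was at 19.8 and 16.9 CPM against 50.9 and 38.6 CPM (-1.27 ± 0.27, adjusted p = 0.0011, edgeR). The co-receptor Gas1 was at 60.9 and 42.3 CPM against 99.2 and 80.3 CPM (-0.81 ± 0.17), and the target Foxf1 at 18.3 and 4.23 CPM against 32.8 and 30.9 CPM (-1.64 ± 0.36). Foxf1 was lower by 0.79 on the log2 scale in replicate 1 alone and by 2.70 in replicate 2 alone. Foxc2, a factor of vessel and lymphatic development, was the higher one, at 25.9 and 25.4 CPM against 11.9 and 15.0 CPM. At 4 or more gating genes 5 of 9 were lower, Shh, Hhip, Foxf1, Gas1 and Gli1, and 0 higher, and Ptch1 no longer passed (-0.97, adjusted p = 0.14).

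Of 9 heterochronic regulators, which hold cells in an early state, 3 were lower and 0 higher, beside 3.20% lower over all genes tested (8.18% at 4 or more gating genes). Lin28a was at 54.8 and 83.5 CPM against 81.6 and 138 CPM (-0.66 ± 0.14), Mycn at 50.2 and 106 CPM against 109 and 153 CPM (-0.72 ± 0.15), and Hmga2 at 513 and 386 CPM against 669 and 494 CPM (-0.36 ± 0.09). Lin28b was at 71.6 and 71.9 CPM against 107 and 75.1 CPM and did not pass. At 4 or more gating genes 7 of 9 were lower, Lin28a by 2.37 and Mycn by 1.69 on the log2 scale. Whether the classes differ in stage was not tested. Few cell cycle genes were called: 0 higher and 2 lower of 20 S phase genes and 1 higher (Cdk1, 0.44 ± 0.11) of 22 G2 and M phase genes. Over all genes tested 6.23% were higher and 3.20% lower.

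Of the 8 lower genes named by the rule, Cxcl13, a chemokine, was at 6.09 and 1.06 CPM against 57.7 and 43.1 CPM (-3.94 ± 0.48, adjusted p = 2.1e-07, edgeR). Aldh1a2, which makes retinoic acid, was at 1.52 and 15.9 CPM against 63.8 and 51.0 CPM (-2.49 ± 0.39). The matrix protein gene Nepn was at 1.52 and 7.40 CPM against 116 and 19.6 CPM (-3.50 ± 0.53). Both replicates were lower for each of these, but by unlike amounts: Aldh1a2 by 4.80 and 1.64 and Nepn by 5.67 and 1.31 on the log2 scale from replicate 1 alone and replicate 2 alone, and Cxcl13 by 3.07 and 4.76. The others were Nefm (-2.39), Hoxb1 (-1.95), Mt2 (-1.74), Osr1 (-1.67) and Cldn6 (-1.42).

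The cardiomyocyte list gave 9 of 12 genes higher than in other cells, for example Myl7 at 403 and 698 CPM against 190 and 222 CPM. In cells with at least 4 gating genes this list gave 1 higher and 1 lower, and Myl7 was at a log2 fold change of -0.14. The mesenchyme list turned from 4 of 14 lower to 14 of 14, and the epithelium list from 6 of 9 lower to 9 of 9. The counts of higher genes were the same at both limits for endothelial transcription factors (17), caveolar genes (6) and tone and clotting genes (13).

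Promoters of the endothelial regulators were searched for the letters bound by ETS factors, CCGGAA or CAGGAA, on both strands in the 250 bases before the start of each gene (RefSeq, GRCm38.p6). Lyl1 and Etv2 are shown as examples, since both were higher in vascular than in other cells and hold such letters in this window. Lyl1 was higher still in endocardial-like cells, at 97.8 and 76.3 CPM. Hhex, Cd34 and Ctla2a, with 2 matches each, are not shown. The Lyl1 stretch is chr8:84701207-84701456, plus strand, with 3 matches, and the Etv2 stretch is chr7:30635853-30636102, minus strand, with 1, each written 5′ to 3′ with the matches in capitals (TTCCGG and TTCCTG are the same letters on the other strand).
Lyl1: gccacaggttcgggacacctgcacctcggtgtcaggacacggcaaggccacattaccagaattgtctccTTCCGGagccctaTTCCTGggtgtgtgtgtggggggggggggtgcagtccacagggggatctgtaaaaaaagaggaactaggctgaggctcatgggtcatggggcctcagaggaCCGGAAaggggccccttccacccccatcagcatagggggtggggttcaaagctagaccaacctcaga
Etv2: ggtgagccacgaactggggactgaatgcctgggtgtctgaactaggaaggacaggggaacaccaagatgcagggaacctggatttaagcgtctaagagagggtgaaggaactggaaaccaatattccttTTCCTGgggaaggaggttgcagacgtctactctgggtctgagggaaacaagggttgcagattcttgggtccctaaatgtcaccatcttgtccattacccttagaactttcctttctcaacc
The letters were present in 39.7% of the 509 promoters of genes higher in vascular cells and in 40.9% of the 7980 promoters of genes tested, and in 4 of 14 promoters of the listed endothelial factors. The GATA letters AGATAA were present in 6.88% against 5.44%, and the E-box letters CAGNTG in 39.1% against 35.2%. Erg and Tal1 had no ETS letters in this window.

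The second comparison set vascular against endocardial-like cells in the same fit. In vascular cells 94 genes were higher (0.867%) and 176 lower (1.62%) of 10846, 2.49% in all. At 3 or more gating genes in both classes, 26 were higher (0.252%) and 38 lower (0.368%). With at least 4 gating genes in both classes (57 and 91 against 44 and 64 cells), 4 were higher (0.0386%) and 24 lower (0.232%) of 10359. Of the first set of lower genes 14 were among the 24, and of the higher genes 0 were among the 4. Without the library as a block, 0 genes passed edgeR's test in either direction, with 794 at an unadjusted p under 0.05, and with cells thinned to 1000 UMIs each 4 were higher and 14 lower.

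Most endothelial genes that differed at first were lower in vascular cells, and few still differed at 4 gating genes. Junction and surface genes gave 9 of 18 lower at first and 0 later, endothelial transcription factors 6 lower and 1 higher of 19 and then 0 of 20, and basement membrane genes 6 of 18 and then 0. Icam2 was at 59.4 and 82.5 CPM in vascular against 153 and 218 CPM in endocardial-like cells (-1.41 ± 0.23, adjusted p = 0.00021, edgeR). In cells with at least 4 gating genes it was at 174 and 257 CPM against 184 and 320 CPM (-0.21 ± 0.24). Calcrl moved from -2.09 ± 0.22 to -1.02 ± 0.25 (adjusted p = 0.059) and Clec14a from -1.99 ± 0.26 to -0.75 ± 0.28 (adjusted p = 0.61, both edgeR).

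The higher genes named by the rule were mostly genes of liver, gut epithelium and mesenchyme. The liver genes Ttr (107 and 51.8 CPM against 9.55 and 0 CPM) and Afp (83.7 and 116 CPM against 0 and 6.35 CPM) were among them. Afp had 165 UMIs against 3, a ratio of 30.6 (95% counting interval 10.3 to 150). Itih2, which encodes a serum protein, had 88 against 1, a ratio of 48.9 (8.56 to 1955). The others were Epcam, of epithelium (1.88 ± 0.33), Cxcl12 (2.79 ± 0.37), Capn6 (2.07 ± 0.35), Arg1 (1.95 ± 0.33), Alcam (1.94 ± 0.37), Dlk1 (1.86 ± 0.17) and Etv2, described below. None of the 10 passed with at least 4 gating genes, and Epcam, Cxcl12, Arg1 and Dlk1 then had negative log2 fold changes, between -0.96 and -0.47.

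**Figure D3:**
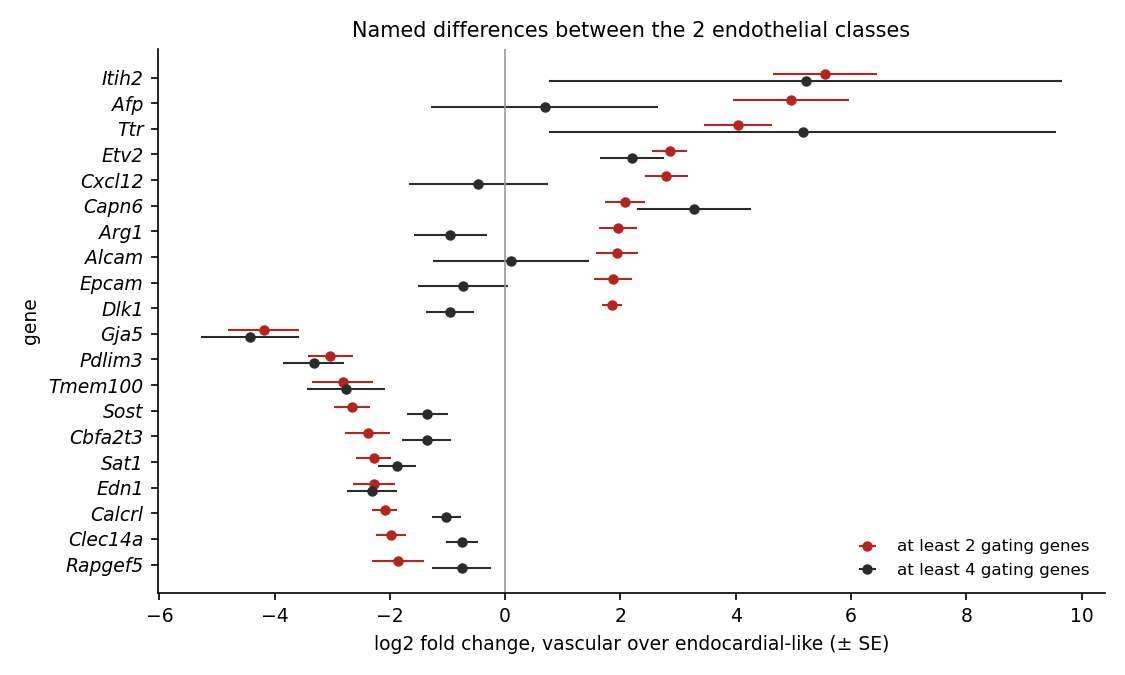
Log2 fold change of vascular over endocardial-like cells with its standard error (horizontal axis) for the 20 genes named by rule (vertical axis), with at least 2 gating genes in red and at least 4 in black. Gja5, Pdlim3, Sat1 and Edn1 passed the test at both limits, while none of the 10 genes on the right passed at 4.

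Genes lower in vascular cells at both limits included several known from endocardium. Gja5, which encodes the gap junction protein connexin 40, was at 3.04 and 4.23 CPM against 14.3 and 119 CPM (-4.19 ± 0.62, adjusted p = 4.1e-05, edgeR), and at a log2 fold change of -4.42 with at least 4 gating genes. Most of it rested on replicate 2, whose fold change alone was -4.65, against -2.03 from replicate 1 alone. The gene lies on chr3:96904693-97077416, plus strand. Connexin 40 is also known from arteries.

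Edn1, which encodes endothelin 1, was at 21.3 and 46.5 CPM against 167 and 157 CPM (-2.27 ± 0.37, adjusted p = 0.00015), and with at least 4 gating genes at 50.7 and 39.8 CPM against 201 and 217 CPM (-2.31 ± 0.43, adjusted p = 0.0021, both edgeR). Both replicates were lower at both limits, with no overlap. Ece1, the enzyme that activates endothelin (-0.78 ± 0.18), and its receptor Ednrb (-0.97 ± 0.22) were also lower at 4 gating genes. Pdlim3, a gene of the actin cytoskeleton, was at 12.2 and 13.7 CPM against 138 and 72.0 CPM (-3.03 ± 0.40), and -3.32 ± 0.53 at 4 genes. The others named by the rule were Sat1 (-2.28 ± 0.30), which also passed at 4 genes, and Sost (-2.66), Cbfa2t3 (-2.38) and Rapgef5 (-1.87), which did not. Foxc2 was at 25.9 and 25.4 CPM against 110 and 72.0 CPM (-1.83 ± 0.31), and -1.90 ± 0.41 at 4 genes.

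The growth-restricting gene Cdkn1c was at 461 and 655 CPM against 1219 and 1182 CPM (-1.13 ± 0.17, adjusted p = 4.8e-05, edgeR), and at 208 and 419 CPM against 1189 and 1186 CPM with at least 4 gating genes (-1.85 ± 0.21). The imprinted genes Igf2 (-0.60 ± 0.12), H19 (-0.64 ± 0.12) and Igf2r (-1.52 ± 0.25) were lower at 4 genes as well. Fn1, the fibronectin gene, was lower by 1.25 ± 0.15 at 2 genes and by 1.19 ± 0.18 at 4.

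Some genes passed only at 4 gating genes. The cushion and mesenchyme genes Sox9 (0 and 1 UMIs against 39 and 6), Hand2 (0 and 2 against 29 and 17), Col1a2 (1 and 3 against 51 and 50) and Col3a1 (6 and 7 against 45 and 40) were lower in vascular cells. Lum, lower as well, had all of its 32 endocardial-like UMIs in replicate 2. The endocardial-like gate needs only 1 UMI of Npr3 or Nfatc1, and Npr3 was also found outside endothelium. Whether the RNA of these lower genes came from endocardial cells or from other cells was not tested. The 4 higher genes were the heart muscle genes Myl7, Actc1, Tnnt2 and Myl4. Myl7 was at 321 and 94.0 CPM against 11.7 and 56.5 CPM, so replicate 1 held most of it.

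Endocardial genes kept out of the gate gave 10 lower and 1 higher of 30 at first and 3 lower at 4 genes. Hapln1, a link protein of the cardiac jelly, was at 288 and 270 CPM against 725 and 536 CPM (-1.19 ± 0.15) and at 580 and 669 CPM against 842 and 665 CPM with at least 4 genes, where it did not pass (-0.24 ± 0.16). Gata4, a heart factor, moved from -1.12 ± 0.25 to -1.53 ± 0.41 (adjusted p = 0.10, edgeR), and Tmem100, a target of BMP signalling, from -2.82 ± 0.53 to -2.76 ± 0.68 (adjusted p = 0.059). Hapln1 was thus as abundant in replicate 2 of the stricter vascular cells as in its endocardial-like cells.

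Etv2 is the ETS factor known to start the endothelial and blood programme in mesoderm. Vascular cells held 134 and 197 UMIs, or 204 and 208 CPM, against 7 and 18 UMIs in endocardial-like cells (16.7 and 38.1 CPM) and 3.28 and 4.87 CPM in other cells. The log2 fold change was 5.64 ± 0.23 over other cells (adjusted p = 6.9e-18) and 2.86 ± 0.30 over endocardial-like cells (adjusted p = 2.6e-07, both edgeR). The latter was 3.52 from replicate 1 alone and 2.41 from replicate 2 alone. In cells with at least 4 gating genes it was 2.21 ± 0.55 (adjusted p = 0.064). The gene lies on chr7:30633616-30635852, minus strand.

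The transcript sat in few cells. A UMI was found in 23 of 163 and 37 of 232 vascular cells (14.1% and 15.9%). Of these, 9 and 26 cells had at least 2 UMIs and held 120 and 186 of the UMIs, with up to 51 and 30 in 1 cell. In replicate 1, cells of 15411 and 10718 UMIs in all held 51 and 48 of the 134 Etv2 UMIs. Many of the other Etv2 cells of that replicate were listed consecutively, with 594 to 1229 UMIs and 1 to 4 Etv2 UMIs each. Whether they were separate cells was not tested. Outside the class the highest UMI numbers in 1 cell were 3 and 8 in cells with 1 gating gene, 4 in both replicates in endocardial-like cells, 4 in a cardiomyocyte of replicate 1 and 2 in other cells. Barcodes of 10 to 200 UMIs, a measure of free RNA, had 0 and 3 Etv2 UMIs of 8713 and 55494, or 0 and 54.1 CPM. On those 3 UMIs, the replicate 2 level lay above that of endocardial-like and of other cells. The cells with a UMI had a median of 3 gating genes in both replicates.

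The Etv2 cells were compared with vascular cells that lacked Etv2 and held at least 4 gating genes (51 and 79 cells), as a description of cells grouped after their values were seen, with no test. Tal1 stood at 543 and 351 CPM with Etv2 and 87.0 and 67.1 CPM without, Lmo2 at 314 and 236 against 62.2 and 109 CPM, and Hhex, a homeobox factor of blood and vessel precursors, at 500 and 208 against 155 and 159 CPM. Hopx, a cofactor known from heart progenitors, was at 257 and 329 CPM against 6.22 and 20.96 CPM. Their levels were above those without Etv2 in both replicates. In replicate 1 these levels rest on few cells: the 9 cells with at least 2 Etv2 UMIs held 28 of the 38 Tal1 UMIs.

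Pecam1 stood at 42.8 and 28.6 CPM with Etv2 against 410 and 256 CPM, Cdh5 at 85.7 and 57.3 CPM against 404 and 524 CPM, and Emcn at 28.6 and 78.7 CPM against 398 and 608 CPM. Cd34, Icam2, Cd93 and Eng followed the same order, for example Cd93 at 28.6 and 21.5 CPM against 205 CPM in both. Kdr did not, at 942 and 494 CPM against 578 and 440 CPM. Egfl7 was lower in both replicates, at 1028 and 1067 CPM against 1075 and 1547 CPM. Fli1 was lower as well, at 114 and 222 CPM against 261 and 239 CPM. The gap was small in replicate 1 for Egfl7 and in replicate 2 for Fli1. Col3a1, a mesenchyme gene, was at 186 and 208 CPM against 24.9 and 20.96 CPM.

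The Etv2 cells held mostly 2 or 3 gating genes and the cells compared with them at least 4, so these differences follow in part from the choice. Only 6 and 12 Etv2 cells also held at least 4 gating genes. In them Tal1 was at 358 and 315 CPM, Lmo2 at 179 and 262 CPM and Hhex at 478 and 288 CPM, again above the cells without Etv2 in both replicates. Hopx was at 0 and 184 CPM, so replicate 1 did not show it. Pecam1 was at 179 and 78.7 CPM and Cdh5 at 298 and 157 CPM, still below the cells without Etv2 but by less. Cd34 was at 358 and 52.4 CPM, above the cells without Etv2 in replicate 1 and below them in replicate 2. Fli1 was at 358 and 472 CPM, above them in both replicates, unlike in all Etv2 cells. Kdr was at 1254 and 341 CPM, above them only in replicate 1, and Egfl7 at 955 and 2019 CPM, above them only in replicate 2. Emcn, Icam2, Cd93 and Eng stayed below them in both replicates. Fli1, Kdr and Egfl7 had up to 18, 21 and 77 UMIs in a library. Each of the other levels here rests on at most 12 UMIs in a library.

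**Figure D4:**
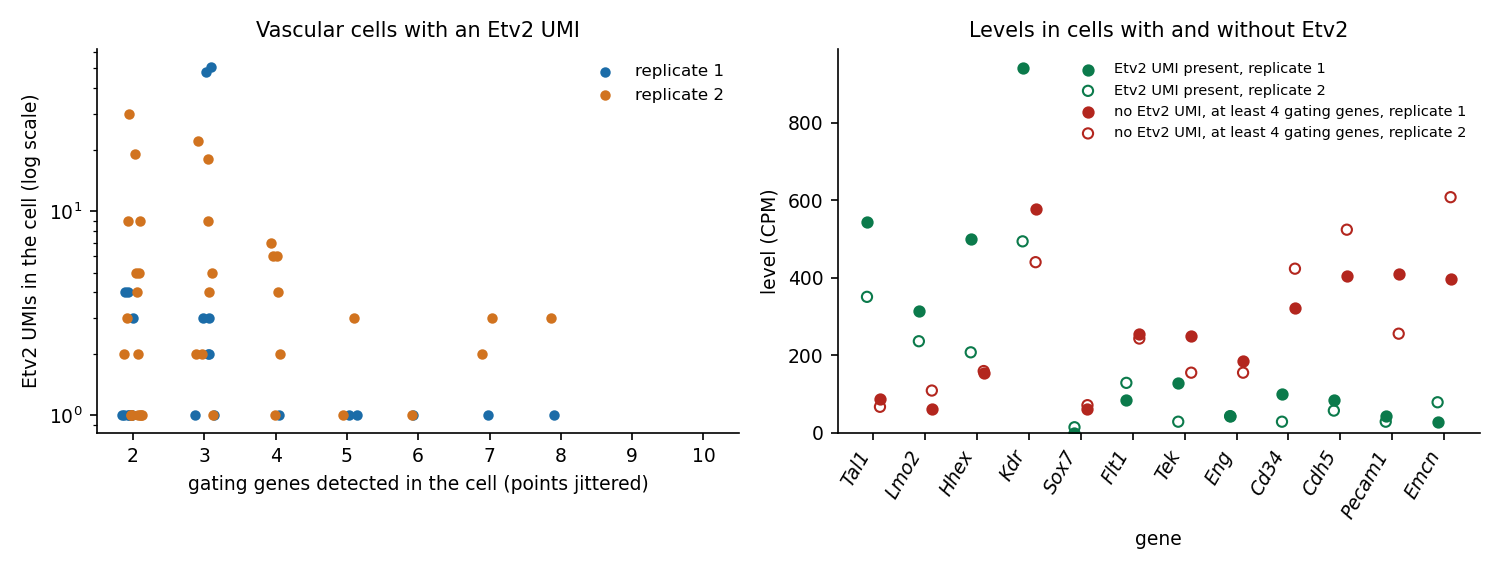
Left, Etv2 UMIs per vascular cell on a log scale (vertical axis) against gating genes in the cell (horizontal axis), with 1 point per cell that has a UMI. Right, level in CPM (vertical axis) of 12 genes (horizontal axis) in cells with Etv2 and in cells without it that hold at least 4 gating genes; the highest UMI numbers, up to 51, are in cells with 2 or 3 gating genes, and Tal1, Lmo2 and Hhex are higher with Etv2 while Cdh5, Pecam1 and Emcn are lower.

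The third comparison split the vascular cells by vessel marks. A cell was arterial-marked with a UMI of Gja4, Dll4, Unc5b or Sox17 and 0 of Aplnr, Ephb4, Flt4 and Nr2f2, and venous-marked in the reverse case. There were 12 and 23 arterial-marked and 69 and 87 venous-marked cells, while 21 and 41 cells had both kinds of mark and 61 and 81 had neither. In replicate 1 the median depth was 858 UMIs for cells with neither mark, 1501.5 for arterial-marked, 2316 for venous-marked and 7701 for cells with both. In replicate 2 it was 1719, 1784, 2977 and 2975 UMIs in the same order. Arterial-marked cells were thus shallower than venous-marked ones in both replicates.

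Of 9022 genes tested, 1 differed (0.0111%), and 661 had an unadjusted p under 0.05 in edgeR's test. That gene was Etv2, at 1335 and 781 CPM in arterial-marked against 217 and 186 CPM in venous-marked cells (2.14 ± 0.31, adjusted p = 0.00069, edgeR). In replicate 1, 1 cell held 48 of the 51 arterial-marked UMIs, and 1 cell held 51 of the 69 venous-marked ones. In replicate 2, 8 of 23 arterial-marked cells held 58 UMIs, up to 22 in a cell. With at least 4 gating genes the log2 fold change was -0.20 (adjusted p = 0.97), and without Nr2f2 among the marks it was 0.85 (adjusted p = 0.40). Without the library as a block, 0 genes passed, with 535 at an unadjusted p under 0.05, and DESeq2 called 5 genes. At 3 or more gating genes, 2 genes were higher (0.0226%) and 8 lower (0.0903%) of 8858, and at 4 or more, 0 were higher and 10 lower (0.123%) of 8144.

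Arterial and venous genes not used as marks did not pass. Their medians were 0.89 over 13 arterial genes and -0.73 over 10 venous and lymphatic genes, beside -0.17 for all genes tested. The arterial ligand Efnb2 was at 52.4 and 135 CPM in arterial-marked and 50.3 and 50.03 CPM in venous-marked cells (0.91 ± 0.71), Hey1 at 52.4 and 202 against 40.9 and 45.3 CPM (1.58 ± 0.76) and Nrp1 at 183 and 337 against 170 and 83.4 CPM (1.13 ± 0.41). The values of these 3 lay apart in replicate 2 and closer in replicate 1. Stab1 was at 52.4 and 26.9 against 56.6 and 31.0 CPM. With 38194 and 74280 UMIs in all, the arterial-marked cells gave 3 counts a level of 78.5 and 40.4 CPM. On simulated counts of this size, 80% of 4-fold and 7% of 2-fold changes were recovered, so a 2-fold difference was mostly not detectable in the simulation. Only genes with a mean of at least 10 expected UMIs in the arterial-marked cells were changed. The simulation had 1 spread for all genes, set beforehand and not estimated from these data, and 1 library shift common to all classes. The recovered shares thus do not cover genes of fewer UMIs, another spread or library shifts that differ between classes.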

How the data were processed

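Drop-seq (droplet single-cell RNA-seq of polyadenylated RNA) was run on 2 libraries. The deposited matrices hold raw UMI counts per gene and barcode, 5000 barcodes and 11958912 UMIs in replicate 1 and 7497 and 14131384 in replicate 2. The submitters' processing notes name Scanpy and the mm10 build. No source used here names the aligner, the counter or the annotation. Of 52550 gene identifiers, 52403 (99.7%) were found in GENCODE M21.

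Cells were filtered and gated as the report describes, and counts were summed per library and class. The sums were tested in edgeR 4.0.16 (R 4.3.3, limma 3.58.1) with TMM scaling, a low-count filter, the library as a block and an adjusted p under 0.05. Each SE was derived from that test, as the size of the log2 fold change divided by the square root of its F statistic. DESeq2 1.42.0 was an alternative. The 80 gating genes of all classes were left out of the tests. The library was kept as a block because classes of 1 library come from the same embryos, and the classes' deviations between libraries correlated at 0.270 to 0.829 over 5129 genes. Classes with under 10 cells in a library (macrophages and myeloid-marked endothelial cells) were left out of the fits, a departure from the planned design. Cells were not removed as doublets: Scrublet (Scanpy 1.11.5) called 0 of 4038 and 1 of 4934 cells, which is too few to have worked, so leaving out the highest 5% of its scores was an alternative. Intervals and floors cover counting error only.

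Genes were named by rule: the 12 highest and 8 lowest fold changes against other cells, 10 each way against endocardial-like cells and 8 each way by vessel mark, among called genes of at least 50 CPM with 1 direction in both libraries, and members of the endothelial, endocardial and Hedgehog lists with at least 10 UMIs. Genes described only in cells with at least 4 gating genes, Cdkn1c, Igf2, H19, Igf2r, Fn1 and those compared by Etv2 were chosen after their values were seen. The cell rule, gene lists and comparisons were chosen with earlier results of these data known. On simulated counts, the test recovered 24% of 2-fold and 88% of 4-fold changes against other cells (10620 genes), 11% and 63% against endocardial-like cells (10650 genes) and 7% and 80% by vessel mark (8648 genes). Changes were placed only in genes with a mean of at least 10 expected UMIs in the first class. The spread, 1 for all genes, was set beforehand, and the library shift was common to all classes. The shares recovered thus hold for those settings, and the shares for the real spread were not tested. Promoter sequences are from RefSeq (GRCm38.p6).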

Additional observations from a re-analysis of the deposited data

How the results depend on the processing

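The counts depended on the gate, the library block, the depth and the low-count filter. Against other cells, the 676 higher genes became 239 with no replicate block and 271 with cells thinned to 1000 UMIs. The 347 lower genes became 116 with DESeq2, 564 with no low-count filter, 17 with no replicate block, 127 when thinned, 658 with at least 3 gating genes and 847 with at least 4, a limit chosen after seeing the data. Against endocardial-like cells, the 94 higher genes became 56 with DESeq2, 0 with no replicate block, 4 when thinned, 26 with at least 3 gating genes and 4 with at least 4. The 176 lower genes became 0 with no replicate block, 14 when thinned, 38 with at least 3 gating genes and 24 with at least 4. By vessel mark, the 1 higher gene became 5 with DESeq2, 2 with DESeq2's size factors, 14 with no low-count filter, 0 with no replicate block, 2 with at least 800 genes per cell, 0 when thinned, 2 with at least 3 gating genes, 0 with at least 4 and 3 without Nr2f2 among the marks. The 0 lower genes (edgeR, with 661 genes at an unadjusted p under 0.05 in either direction and 0 lower with DESeq2) became 40 with no low-count filter, 8 with at least 3 gating genes and 10 with at least 4. DESeq2's size factors moved the median of all genes in this comparison from -0.17 to -0.06. Thinning and stricter gates also leave fewer cells, and thinning fewer genes (4555 and 3112 tested). Other causes were not tested. The share of vascular cells, 4.37%, became 5.17% with at least 800 genes per cell, 2.42% with at least 3 gating genes and 1.63% with at least 4, and ranged from 4.04% to 4.70% when a replicate was left out. With 1 library left, gene counts could not be tested.

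Log2 fold changes of some named genes changed sign with the gate. With at least 3 gating genes and then with at least 4, those against other cells were -3.88 and -3.93 for Afp (-1.30 when thinned), -4.12 and -4.47 for Ttr, -3.60 and -2.96 for Itih2 and -1.45 and -3.92 for Dlk1. With at least 4 they were -2.62 for Angpt1, -0.10 for Igf2r, -0.20 for Myl4 and -0.14 for Myl7. Against endocardial-like cells, they were 2.82 and 2.55 for Actc1 and -0.55 and -0.73 for Epcam with at least 3 and at least 4. With at least 4 they were -0.36 for Angpt1, -0.95 for Arg1, 0.29 for Cavin3, 0.21 for Cd34, -2.13 for Col3a1, -0.47 for Cxcl12, -0.96 for Dlk1 and 0.072 for Sox18. By vessel mark, Etv2 was at -0.20 with at least 4. The cause was not tested.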
